A study of Mus musculus with 21 samples.

Results

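Copper enzymes of the secretory path are proteins that receive their copper in the Golgi and act in secretory vesicles, at the cell surface or in the extracellular matrix. The 10 described here were taken by gene symbol, with no cut on their values, from the 21872 symbols of each count table: Pam, Lox, Loxl1, Loxl2, Loxl3, Heph, Cp, Aoc2, Aoc3 and Dbh. They were chosen with earlier results of these data known. All 10 had a row at both ages. After a filter on low counts, 8 were tested at embryonic day 18.5 (E18.5; not Aoc3 or Dbh), 8 at 7 weeks (not Loxl2 or Dbh) and 9 in a fit of both ages together (not Dbh).

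The RNA came from brains of mice given water, the control, or trientine (TETA), a drug that binds copper; the label of the TETA groups is copper-deficient. There were 6 control and 6 TETA libraries at E18.5, and 5 control and 4 TETA libraries at 7 weeks after birth. The labels give no strain, genotype, dose, route or length of treatment for any group. The protocol text speaks of prefrontal cortex of male mice at 7 weeks and names neither region nor sex for E18.5, so age cannot be told apart from region, sex or a difference between the handling of the ages. The labels also do not say that libraries came from separate animals, so that p-values measure the spread between these libraries. At E18.5 the replicate names share a first number in pairs, and the main fit and the permutation tests take these libraries as separate units. The total count of a library lay between 14678265 and 24308555 at E18.5 and between 17838051 and 24035857 at 7 weeks.

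The enzymes share a metal and little else. Pam makes the amide at the C-terminus of many neuropeptides. Lox and its relatives oxidise lysines in collagen and elastin so that the fibres cross-link. Heph and Cp are ferroxidases, which oxidise iron as it leaves a cell. Aoc2 and Aoc3 are amine oxidases, and Dbh turns dopamine into noradrenaline in noradrenergic neurons. The copper pump Atp7a loads this compartment from the cytosol.

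Levels are in CPM, counts divided by the size of their library after TMM scaling over all 21 libraries, and are given as mean ± SD over libraries. A difference is a log2 fold change with its standard error (SE). A gene is called changed at an adjusted p under 0.05, where p comes from edgeR's quasi-likelihood test and is adjusted over all genes tested by Benjamini-Hochberg.

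No member was called changed with TETA at either age, whereas 7 of 9 members differed between control libraries of the 2 ages. At E18.5 0 of 8 members were called, against 0% of all 13794 genes by edgeR; 660 genes (4.78%) had an unadjusted p under 0.05, and DESeq2 called 10 genes. At 7 weeks 0 of 8 members were called, against 9.96% of 14240 genes (5.67% higher and 4.28% lower). Between ages 89.3% of 14660 genes were called (44% higher and 45.3% lower at 7 weeks), so that a call on age alone sets no member apart. The members' median log2 difference for TETA was 0.10 at E18.5 (all genes -0.0027) and -0.17 at 7 weeks (all genes 0.00019), and 7 of 8 differences were positive at E18.5 and 4 of 8 at 7 weeks, against 48.2% and 50.1% of all genes. At E18.5 the sign of Cp turned without TETA replicate 3-2 and that of Loxl2 without control replicate 2-2 or TETA replicate 1-2.

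**Figure D1:**
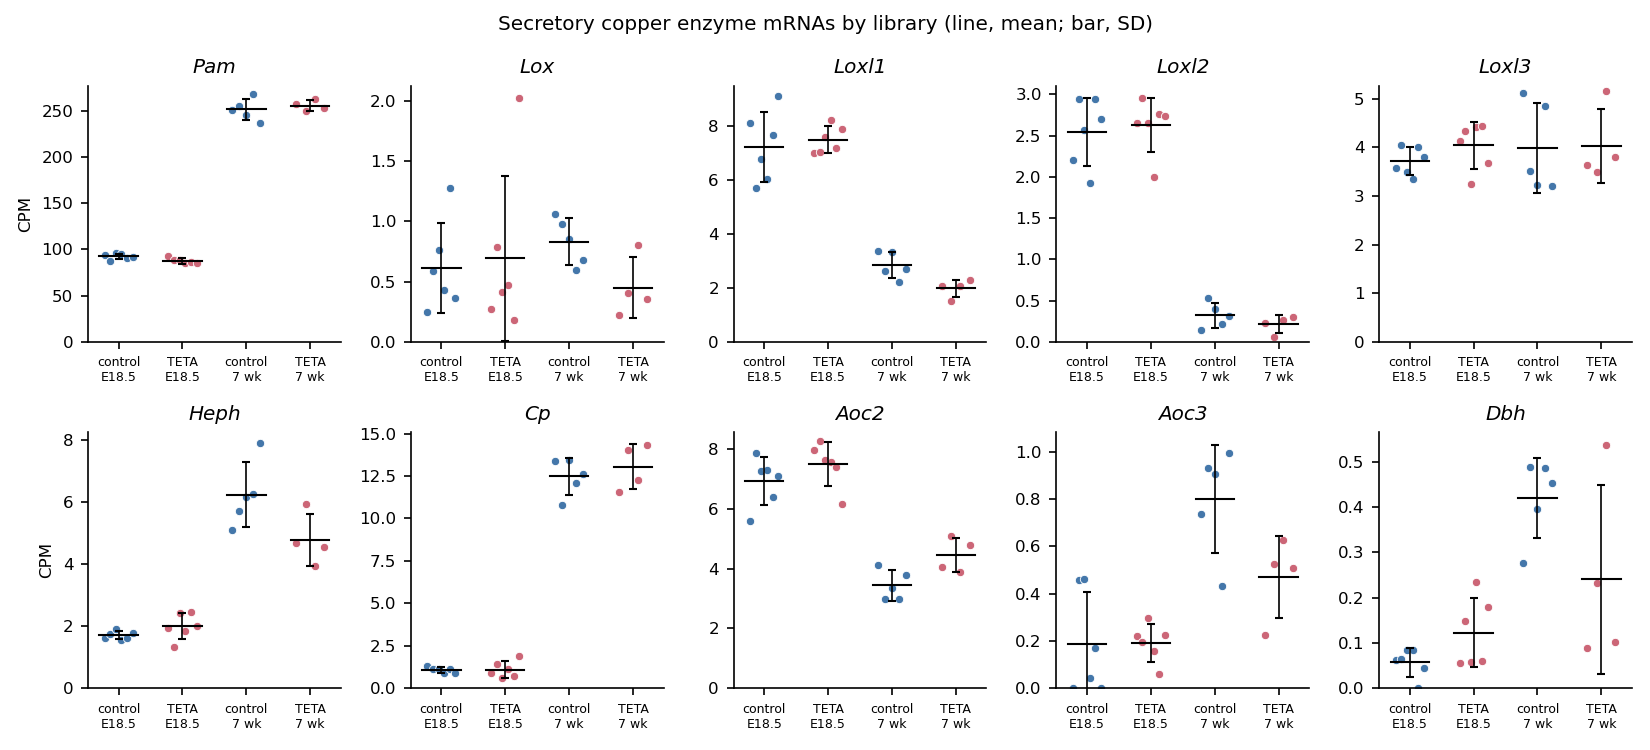
Level of each of the 10 members in every library, in CPM on an axis of its own that starts at 0; points are libraries (blue control, red TETA), lines are group means and bars are SDs, cut at 0. The control and TETA points overlap in every panel at both ages, while those of Pam, Heph and Cp lie far higher at 7 weeks than at E18.5 and those of Loxl1, Loxl2 and Aoc2 lower.

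Of the members, RefSeq promoter windows were found for Pam, Cp, Aoc2 and Dbh. The 250 bases before the start are shown for the 3 whose window holds no annotated exon, since Pam and Cp were called higher at 7 weeks than at E18.5 and Aoc2 lower. They lie on GRCm38.p6 at chr1:98095647-98095896 on the minus strand for Pam, at chr3:19956804-19957053 on the plus strand for Cp and at chr11:101324813-101325062 on the plus strand for Aoc2. Each is written 5′ to 3′ as transcribed, with CG dinucleotides in capitals.
Pam: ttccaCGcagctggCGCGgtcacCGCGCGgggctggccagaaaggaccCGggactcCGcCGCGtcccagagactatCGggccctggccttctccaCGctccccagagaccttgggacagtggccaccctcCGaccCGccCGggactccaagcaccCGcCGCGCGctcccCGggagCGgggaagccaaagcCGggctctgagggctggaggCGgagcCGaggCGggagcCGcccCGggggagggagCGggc
Cp: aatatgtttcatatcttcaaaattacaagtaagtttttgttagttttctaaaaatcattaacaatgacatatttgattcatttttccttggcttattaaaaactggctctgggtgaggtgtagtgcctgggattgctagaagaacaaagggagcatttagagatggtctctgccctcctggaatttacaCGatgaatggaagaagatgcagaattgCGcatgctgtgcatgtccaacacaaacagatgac
Aoc2: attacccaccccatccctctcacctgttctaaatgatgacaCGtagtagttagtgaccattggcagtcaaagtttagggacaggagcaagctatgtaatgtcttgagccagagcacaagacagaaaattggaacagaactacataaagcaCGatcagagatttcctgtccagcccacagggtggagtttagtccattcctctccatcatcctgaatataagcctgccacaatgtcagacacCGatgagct
The Pam window held 28 CG dinucleotides at a GC content of 75.6%, and 92.4% of 32851 windows of the same length held fewer. The Cp window held 2 at 37.2% GC and the Aoc2 window 3 at 46.0% GC, and 18.8% and 29.0% of windows held fewer; the median window held 6. The core motif of hypoxia factors (ACGTG or GCGTG, either strand) was in the Pam window 2 times and in the Aoc2 window 1 time, and in 38.6% of all windows. The core of the metal response element (TGCACNC or TGCGCNC, either strand) was in none of the 3 and in 21.4% of all windows. The TATAAA motif (either strand) was in none of the 3 and in 12.4% of all windows. Pam and Cp each have a second RefSeq start whose window overlaps an exon and is not shown; that of Cp holds TATAAA 25 and 27 bases before the start, on opposite strands, and that of Pam holds none. These matches describe letters in a window and nothing about binding.

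Pam was by far the most abundant member and had the tightest values. The peptidylglycine alpha-amidating monooxygenase gene lies on GRCm38 at chr1:97795114-98095646 on the minus strand. In control libraries its level was 92.4 ± 2.85 CPM at E18.5 (n = 6) and 252 ± 11.3 CPM at 7 weeks (n = 5). Per length it stood first in every group, at 7.77 ± 0.239 RPKM (CPM per kilobase of exon) in control libraries at E18.5, with the next member, Aoc2, at 2.72 ± 0.314.

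With TETA at E18.5 Pam was at 87.7 ± 3.06 CPM (n = 6; lowest 85, median 87.1, highest 93), and the controls ran from 88 through a median of 92.9 to 95.7. The groups overlapped, although 3 of the 6 TETA libraries lay below the lowest control. The log2 difference was -0.078 (SE 0.035, 95% interval -0.15 to -0.01), with an unadjusted p of 0.0353, an exact permutation p of 0.026 and an edgeR adjusted p of 0.996. It was the 1 of 8 members with an unadjusted p under 0.05 at E18.5, against the 4.78% of all genes given above.

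At 7 weeks Pam had 251, 255, 246, 268 and 237 CPM in the controls and 258, 250, 262 and 253 in TETA libraries. The TETA values lie inside the control range. On the log2 scale the difference was 0.036 (SE 0.035, 95% interval -0.04 to 0.11, edgeR adjusted p = 0.581), so that the interval leaves room for a change of at most 0.11. Between ages Pam rose by 1.44 on the log2 scale (SE 0.035), 2.72-fold, with an edgeR adjusted p of 5.94e-27.

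Genes that make and carry the peptides Pam acts on were taken as a list of 33, of which 23 were tested at each age. At 7 weeks 2 were called higher with TETA and 6 lower, against 5.67% and 4.28% of all genes. Their median was 0.0105 (all genes 0.00019). Tac1, which encodes substance P, one of the amidated peptides, fell from 28.6 to 14.5 CPM, a log2 change of -0.96 (SE 0.091, edgeR adjusted p = 9.6e-07). Cpe, the carboxypeptidase that trims peptides before amidation, fell by 0.19 on the log2 scale (SE 0.039, edgeR adjusted p = 0.00302). The precursor genes Npy and Scg2 fell by 0.19 and 0.16. Grp, another amidated peptide, rose by 0.52 (SE 0.15, edgeR adjusted p = 0.0284), and the convertase Pcsk1 by 0.19 (SE 0.055, edgeR adjusted p = 0.0332). Pam itself was not called.

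The Tac1 result stands beside a shift in regional markers. Tac1 is also a gene of striatal neurons, and all 10 of 10 striatum markers were lower with TETA at 7 weeks: their summed level ran from 855 to 1060 CPM in the controls and from 377 to 484 CPM after TETA, with a median log2 change of -1.46. At E18.5 none of the 10 was called. With the striatum score in the model, 1 gene in place of 1418 was called at 7 weeks. In that fit the members' differences moved widely and none was called: Lox was at -2.84 (SE 1.1), Aoc3 at -2.48 (SE 1.1), Aoc2 at 0.79 (SE 0.46), Loxl1 at -0.45 (SE 0.62) and Heph at -0.099 (SE 0.48), and Pam (-0.018) and Loxl3 (-0.52) changed sign. The summed level did not overlap between the groups, so that it and the treatment cannot be told apart. In bulk tissue, fewer cells of a type and less RNA per cell cannot be told apart.

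At E18.5 0 of the 23 peptide genes were called. The smallest unadjusted p-values there were those of Cpd (log2 difference 0.10, SE 0.041, edgeR adjusted p = 0.939) and Grp (-0.18, SE 0.078, edgeR adjusted p = 0.996). Between ages 18 of 25 tested genes were higher at 7 weeks and 5 lower, against 44% and 45.3% of all genes. Pcsk2, which cleaves prohormones, stood at 63.8 and 666 CPM, and Chgb, a granule protein, at 79.7 and 491.

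The lysyl oxidases were low in abundance, and none of the 3 tested at 7 weeks passed the threshold; their log2 differences were -0.86 for Lox, -0.50 for Loxl1 and 0.036 for Loxl3. On GRCm38, Lox lies on chromosome 18, Loxl1 at chr9:58287738-58313186, Loxl2 at chr14:69609068-69695834 and Loxl3 at chr6:83034173-83052562. Per length, Loxl1 was highest of the 4 in control libraries at E18.5 (2.19 ± 0.395 RPKM), above Loxl3 (0.807 ± 0.0624), Loxl2 (0.471 ± 0.0759) and Lox (0.128 ± 0.0778), and these 4 ranges did not overlap. At 7 weeks Loxl3 (0.865 ± 0.201) and Loxl1 (0.864 ± 0.151) overlapped, and Lox stood at 0.174 ± 0.041 and Loxl2 at 0.0592 ± 0.0285. Loxl3 shares 535 bases, 11.62% of its exon length, with Htra2 on the opposite strand, and Loxl2 shares 301 bases (5.57%) with the antisense gene Gm27177. The strand setting of the counting is not given in the sources used here, so reads of these genes could be shared.

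Lox, the founding member, had values of 1.06, 0.976, 0.85, 0.593 and 0.679 CPM in control libraries at 7 weeks. In TETA libraries they were 0.225, 0.409, 0.807 and 0.355. Controls 1, 2 and 3 lay above every TETA library, and TETA replicate 3 lay among the controls. The log2 difference was -0.86 (SE 0.33, 95% interval -1.56 to -0.17), with an exact permutation p of 0.0397 and an edgeR adjusted p of 0.11. Without TETA replicate 3 it was -1.35, with an edgeR adjusted p of 0.0265, and without TETA replicate 1 it was -0.62; over the 9 such fits the adjusted p reached 0.29. These values rest on 11 to 23 counts in a control library and 5 to 18 in a TETA library.

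At E18.5 Lox ran from 0.251 through a median of 0.509 to 1.28 CPM in control libraries and from 0.18 through 0.441 to 2.02 in TETA libraries. TETA replicate 3-2 was the highest by far, and without it the TETA mean of 0.691 ± 0.684 became 0.425 ± 0.232 (n = 5). On the log2 scale the difference was 0.19 with an SE of 0.46 and a 95% interval of -0.76 to 1.15, too wide to show a change in either direction.

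Markers of meningeal fibroblasts, cells that make fibrillar collagen on the brain surface, were compared with Lox library by library. The summed level of 10 such markers ran from 79.3 to 90.7 CPM in the controls and from 48.6 to 74.7 CPM after TETA at 7 weeks. Col1a1, Col1a2 and Slc6a13 were called lower, 3 of 10, with a list median of -0.40. TETA replicate 1, with the lowest sum of the 7-week libraries (48.6), also had the lowest Lox value. Among the 7-week controls, replicate 1 had the lowest sum (79.3) and the highest Lox. Replicate 5 had the highest sum (90.7) and a Lox value below those of replicates 1, 2 and 3. The sums of these controls lie close together and Lox had 11 to 23 counts in them. They can therefore show neither a relation nor its absence. At E18.5 the sum was 10.6 to 22.5 in control and 10.4 to 31.4 in TETA libraries, with 0 of 6 tested markers called. TETA replicate 3-2 held the highest sum and the highest Lox at that age, and control replicate 3-1 was the highest of the controls in both.

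With the mean log2 level of these markers as a covariate, which was tried after the data had been seen, the Lox difference was -0.078 at 7 weeks (SE 0.53, edgeR adjusted p = 0.962) and -0.40 at E18.5 (SE 0.26, edgeR adjusted p = 0.999), against -0.86 and 0.19 without it. The summed level of these markers did not overlap between the groups at 7 weeks, so that there the covariate and the treatment cannot be told apart, for Lox or for any other member fitted with it. Over all 21 libraries, after each group's mean was subtracted, the genes most like Lox among 11523 compared were Col1a2 (r = 0.88), Ogn (r = 0.85) and Ptgds (r = 0.82). Libraries share depth and tissue content, so that r is a description. Col1a2 and Ogn are among the 10 markers.

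**Figure D2:**
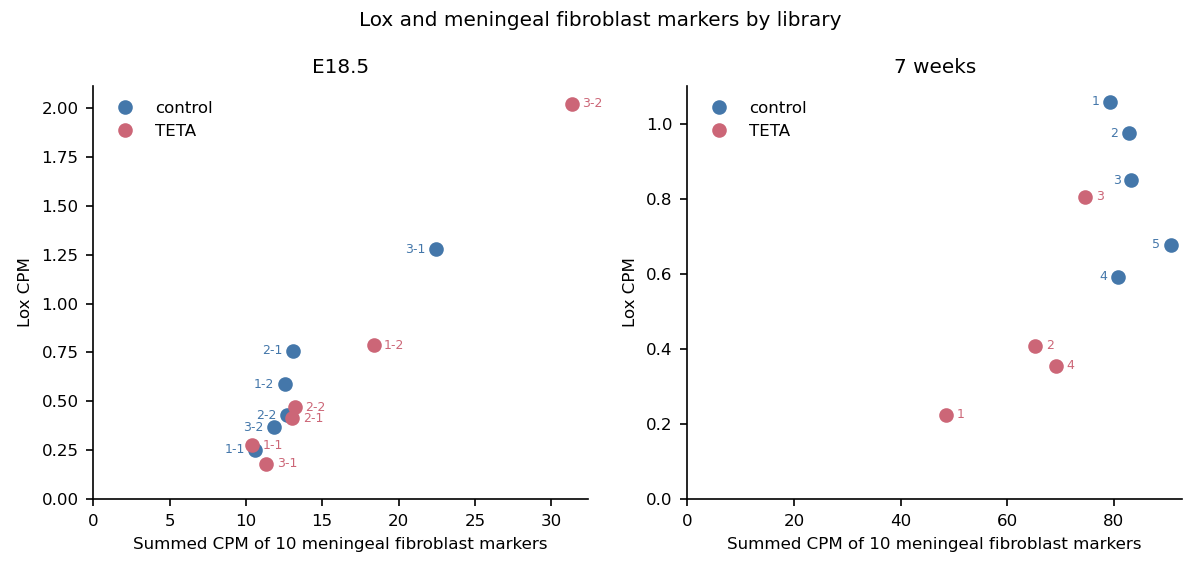
Lox level in CPM against the summed CPM of 10 meningeal fibroblast markers, with 1 point per library labelled by replicate, E18.5 on the left and 7 weeks on the right. TETA replicate 3-2 at E18.5 is the far point at 31.4 and 2.02 CPM, and at 7 weeks the 4 TETA libraries all lie to the left of the 5 controls.

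Loxl1, which cross-links elastin, had 3.36, 2.62, 3.34, 2.21 and 2.71 CPM in control libraries at 7 weeks and 2.07, 1.52, 2.06 and 2.28 in TETA libraries. TETA replicate 4 lay above control replicate 4, and all the other TETA libraries lay below every control. The log2 difference was -0.50 (SE 0.17, 95% interval -0.86 to -0.14), with an exact permutation p of 0.0238 and an edgeR adjusted p of 0.0714. Without control replicate 4 it was -0.57, with an edgeR adjusted p of 0.0458, and without TETA replicate 2 it was -0.40; over the 9 such fits the adjusted p reached 0.182. The difference was -0.45 with the meningeal markers in the model (SE 0.28, edgeR adjusted p = 0.463).

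At E18.5 the Loxl1 level was 7.23 ± 1.3 CPM in control libraries and 7.5 ± 0.506 CPM after TETA (n = 6 each), a log2 difference of 0.054 (SE 0.099, 95% interval -0.15 to 0.26). The difference between the ages in the TETA effect was tested on its own and was -0.56 (SE 0.2, edgeR adjusted p = 0.12). Between the ages Loxl1 fell 2.54-fold in control libraries, by 1.35 on the log2 scale (SE 0.12, edgeR adjusted p = 1.11e-11).

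Loxl2, a collagen-acting relative, was the member that fell most with age. Its controls ran from 1.93 through 2.64 to 2.94 CPM at E18.5 and were 0.138, 0.532, 0.397, 0.216 and 0.317 at 7 weeks, with no overlap. The log2 change was -2.96 (SE 0.24, edgeR adjusted p = 4.23e-13), a 7.78-fold fall. TETA libraries at E18.5 stood at 2.63 ± 0.329 CPM (lowest 1.99, median 2.7, highest 2.95), and the log2 difference was 0.035 (SE 0.13, 95% interval -0.24 to 0.31). At 7 weeks it was under the filter, at 3 to 12 counts in a control and 1 to 6 in a TETA library, and its exact permutation p was 0.302.

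Loxl3 was the member closest to level in the 4 groups, at 3.71 ± 0.287 and 4.04 ± 0.48 CPM at E18.5 and 3.98 ± 0.927 and 4.03 ± 0.762 CPM at 7 weeks (control and TETA). Its log2 difference with TETA was 0.13 at E18.5 (SE 0.1, 95% interval -0.08 to 0.34) and 0.036 at 7 weeks (SE 0.16, 95% interval -0.31 to 0.38). Between ages it was 0.10 (SE 0.13, edgeR adjusted p = 0.451), and -0.042 without TMM scaling, so that its direction is not set. TMM scaling itself moved the median of all genes between ages from -0.17 to -0.02.

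The fibre proteins that lysyl oxidases act on, and their partners, formed a list of 27, of which 26 were tested at each age. At 7 weeks 5 were called higher with TETA and 6 lower, against 5.67% and 4.28% of all genes. Their median was -0.0295 (all genes 0.00019). Col5a1 rose from 11.6 to 20.5 CPM, a log2 change of 0.83 (SE 0.12, edgeR adjusted p = 0.000175). The basement membrane collagens Col4a1 and Col4a2 rose by 0.31 and 0.33 on the log2 scale, and Bmp1, a protease that activates Lox and processes procollagen, by 0.37. The fibrillar collagens Col1a1 and Col1a2 fell by 0.55 and 0.40, the adhesive glycoprotein Fn1 by 0.34 and the elastic fibre protein Emilin1 by 0.61. Col1a1 and Col1a2 are also among the meningeal markers. Eln, which encodes elastin itself, was at 7.21 and 6.28 CPM, with an edgeR adjusted p of 0.436; it was chosen after its values were seen.

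**Figure D3:**
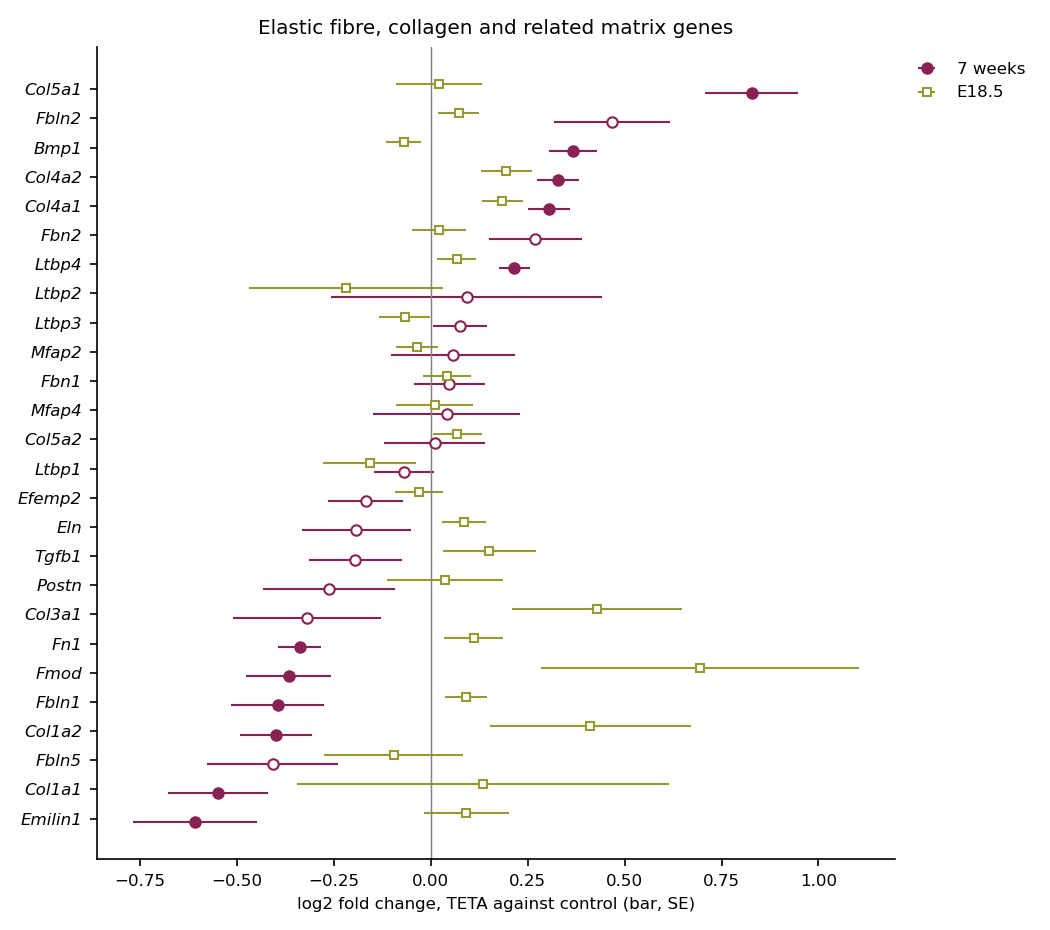
Log2 fold change with TETA of the 26 matrix genes tested, ordered by the value at 7 weeks (circles, filled where called) with that at E18.5 (open squares, none called); bars are SEs. Collagens appear at both ends at 7 weeks, with Col5a1 highest and Col1a1 next to the lowest, Emilin1.

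At E18.5 0 of the 26 matrix genes were called, and the smallest p-values were those of Col4a1 (log2 difference 0.19, SE 0.052, edgeR adjusted p = 0.622) and Col4a2 (0.20, SE 0.066, edgeR adjusted p = 0.828). Endothelial cells lay these collagens down. The summed level of 10 of their markers was 155.5 to 174.6 CPM in the controls and 174.7 to 189.7 after TETA at E18.5, with 0 of 9 tested called. At 7 weeks it was 237 to 258 CPM (median 240) and 238 to 266 (median 263), so that the groups overlapped. Of 10 tested there, Flt1 was called higher and 0 lower. Kdr, chosen after its values were seen, was at -0.23 (SE 0.1, edgeR adjusted p = 0.181). The part of endothelial cells in the collagen values was not tested. The TETA effect itself differed between ages for 5 of 26, against 3.1% of all genes. It was higher at 7 weeks for Bmp1 and Col5a1 and lower for Fn1, Fbln1 and Emilin1. Between ages, 9 matrix genes rose and 12 fell, against 44% and 45.3% of all genes. Fbn2, an embryonic fibrillin, went from 51.3 to 3.35 CPM and Mfap2 from 32.9 to 2.41, the same direction as Loxl1 and Loxl2, while Fmod went from 0.557 to 17.7 and Col1a2 from 3.49 to 22.

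Both ferroxidases rose with age, and Cp rose most of all 9 members tested. Cp (ceruloplasmin) lies on GRCm38 at chr3:19957054-20009145 and Heph (hephaestin) at chrX:96455359-96574485. Cp controls ran from 0.9 through 1.11 to 1.32 CPM at E18.5 and were 13.4, 10.8, 13.4, 12.1 and 12.6 at 7 weeks. The rise was 3.53 on the log2 scale (SE 0.14, edgeR adjusted p = 5.96e-21), 11.6-fold, and every adult library lay above every embryonic one. Heph rose 3.65-fold, by 1.87 (SE 0.14, edgeR adjusted p = 6.2e-14), from 1.71 ± 0.131 to 6.24 ± 1.04 CPM. Per length, Cp moved from the eighth place of the 10 to the third.

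The summed levels of glial markers rose over the same interval. That of 10 astrocyte markers was 586 to 670 CPM in control libraries at E18.5 and 6070 to 6970 at 7 weeks. That of 10 oligodendrocyte markers was 72.6 to 84.6 and 7210 to 8530. Of the astrocyte markers 9 were called higher and 1, Sox9, lower (29.8 and 20.6 CPM), and Slc1a2 alone stood at 141 and 4120 CPM. All 10 oligodendrocyte markers were called higher, against 44% of all genes. Astrocytes are a known source of ceruloplasmin and oligodendrocytes of hephaestin in brain. The part of these cells in the rise was not tested.

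With TETA at 7 weeks Cp stood at 11.6, 14.0, 12.3 and 14.3 CPM, around the control values. On the log2 scale the difference was 0.072 (SE 0.083, 95% interval -0.10 to 0.25, edgeR adjusted p = 0.658). Choroid plexus also makes ceruloplasmin, and the summed level of its 10 markers stood high in 1 library. It was 65.4 CPM in control replicate 4 and 5.25 to 6.46 in the other controls. Ttr carried most of that high sum: its mean over the controls was 11.4 CPM, and that of the next marker, Kl, was 1.87. Cp was 12.1 CPM in control replicate 4, inside the range of its group. The control mean of Cp was 12.6 ± 1.23 without that library (n = 4) against 12.5 ± 1.08 with it.

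At E18.5 Cp was 1.11 ± 0.485 CPM with TETA against 1.08 ± 0.156 in controls (n = 6 each). Its highest TETA value, 1.89, came from replicate 3-2, the library with the highest Lox and meningeal sum, and the TETA mean was 0.951 ± 0.335 without it. The log2 difference was 0.092 (SE 0.23, 95% interval -0.39 to 0.57) with that library and -0.13 without it.

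Heph was 5.12, 5.72, 6.18, 6.26 and 7.92 CPM in control libraries at 7 weeks and 4.68, 5.95, 3.95 and 4.57 in TETA libraries. TETA replicates 1, 3 and 4 lay below every control, and replicate 2 lay among the controls. On the log2 scale the difference was -0.38 (SE 0.14, 95% interval -0.67 to -0.10), with an exact permutation p of 0.0556 and an edgeR adjusted p of 0.0845. Without control replicate 1 it was -0.45 (edgeR adjusted p = 0.0473), and without TETA replicate 2 it was -0.50 (edgeR adjusted p = 0.0345). Without control replicate 5 it was -0.28, and over the 9 such fits the edgeR adjusted p reached 0.257.

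The oligodendrocyte sum at 7 weeks ran from 7210 to 8530 CPM in the controls and from 6430 to 7540 CPM after TETA, with 0 of 10 markers called, and the astrocyte sum was 6070 to 6970 and 5520 to 5910, with 3 of 10 called lower. Their part in the Heph difference was not tested. At E18.5 Heph was 1.71 ± 0.131 in control and 2 ± 0.417 CPM in TETA libraries (n = 6 each), a log2 difference of 0.21 (SE 0.15, 95% interval -0.10 to 0.52). The effect at 7 weeks minus that at E18.5 was -0.60 (SE 0.21, edgeR adjusted p = 0.114), and -0.70 without TETA replicate 1-2 of E18.5 (edgeR adjusted p = 0.041). Without control replicate 5 of 7 weeks it was -0.50, and over the 21 such fits the edgeR adjusted p reached 0.249.

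Of the other iron genes, a list of 12 symbols, 11 had a row and 10 were tested. The symbol Tf had no row, so that transferrin was not examined here. At 7 weeks 0 of the 10 were called higher with TETA and 2 lower, against 5.67% and 4.28% of all genes. Tfrc, the transferrin receptor, fell from 202 to 172 CPM (log2 change -0.22, SE 0.058, edgeR adjusted p = 0.0195). Aco1, an iron regulatory protein, fell from 38.8 to 33.8 (-0.19, SE 0.045, edgeR adjusted p = 0.0109). Ireb2, the other such protein, was chosen after its values were seen. It was at 71.1 and 70.5 CPM (-0.002, SE 0.04, edgeR adjusted p = 0.987). At E18.5 0 of 10 were called; Tfrc had a difference of -0.20 there (SE 0.066, edgeR adjusted p = 0.801). The exporter Slc40a1, the partner of both ferroxidases, was at 11 and 10.2 CPM at 7 weeks (edgeR adjusted p = 0.542); it was chosen after its values were seen. All 10 differed between ages, 5 higher and 5 lower, against 89.3% of all genes. Fth1 (ferritin heavy chain) was at 431 and 1910 CPM and Ftl1 (light chain) at 937 and 231.

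**Figure D4:**
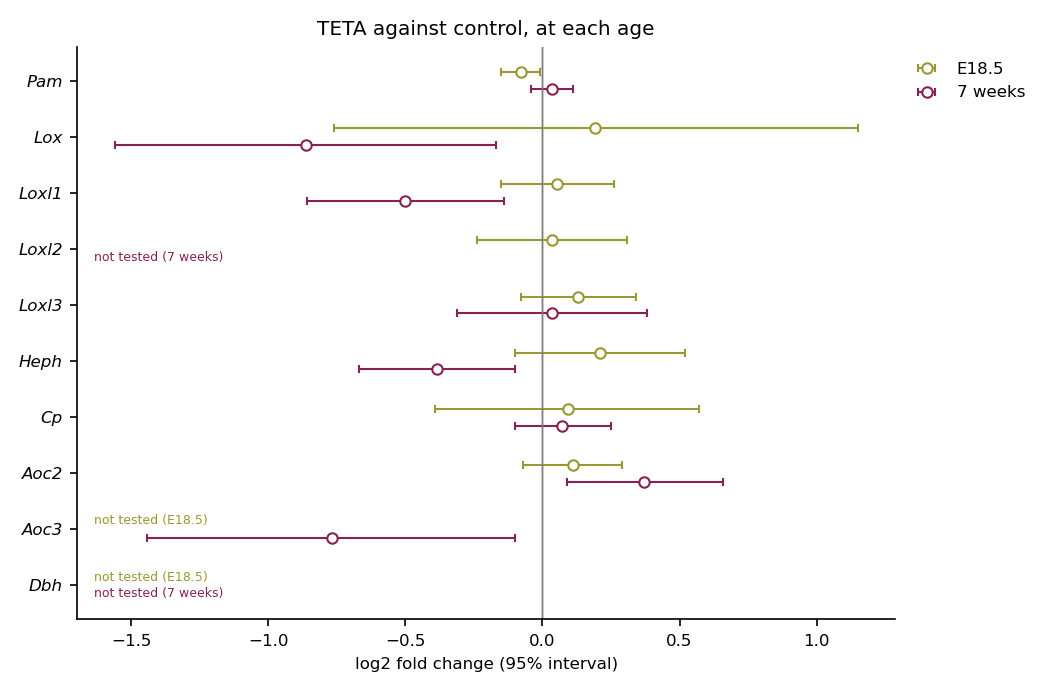
Log2 fold change with TETA for each member at E18.5 (olive) and 7 weeks (purple), with 95% intervals; open circles did not pass the adjusted threshold. No circle is filled, and the intervals of Lox, Loxl1, Heph, Aoc2 and Aoc3 at 7 weeks and of Pam at E18.5 lie on 1 side of 0 before adjustment.

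The paired amine oxidase genes went opposite ways with age. Aoc2 lies on GRCm38 at chr11:101325063-101329702 and Aoc3, its neighbour and close relative, at chr11:101330605-101341938, both on the plus strand, and how reads common to both were counted is not given in the sources used here. Aoc2, known from the retina, stood at 6.91 ± 0.797 CPM in control libraries at E18.5 (n = 6) and 3.44 ± 0.505 at 7 weeks (n = 5), a 2-fold fall (SE 0.11 on the log2 scale, edgeR adjusted p = 4.58e-10). Aoc3, known as vascular adhesion protein and found on vessel walls, rose 4.23-fold, by 2.08 (SE 0.44, edgeR adjusted p = 6e-05); this log2 change was 1.81 without control replicate 3-2 of E18.5 and 2.68 without control replicate 2-1.

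The rise of Aoc3 depends on how the E18.5 table is read. Aoc3 had 0 counts in control replicate 1-1, and its counts in the other 11 libraries were all multiples of 11, as were those of all 1940 genes at 0 in that library. They were divided by 11 here, which gave 0 to 11 counts a control library and 1 to 5 a TETA library. With the deposited counts the change between ages was -1.33 with an edgeR adjusted p of 0.0699, the opposite direction. The 2 controls at 0 allow up to 0.188 and 0.137 CPM (3 counts, counting error only), and the level without replicate 1-1 was 0.227 ± 0.222 CPM (n = 5) against 0.189 ± 0.219 with it. No other member was touched by this.

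With TETA at 7 weeks Aoc3 was 0.225, 0.525, 0.628 and 0.508 CPM against 0.737, 0.931, 0.907, 0.432 and 0.995 in controls. All controls except replicate 4 lay above every TETA library. The log2 difference was -0.77 (SE 0.32, 95% interval -1.44 to -0.10), with an exact permutation p of 0.0635 and an edgeR adjusted p of 0.142, from 5 to 14 counts a TETA library and 8 to 22 a control library. With the meningeal markers in the model the difference was 0.20 (SE 0.45, edgeR adjusted p = 0.887). The summed level of 10 mural cell markers was 226 to 239 CPM in control and 226 to 244 in TETA libraries, with 0 called, and that of 10 endothelial markers 237 to 258 and 238 to 266, with 1 called, higher.

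Aoc2 had the largest of the 4 positive differences with TETA at 7 weeks: 4.05, 5.08, 3.9 and 4.77 CPM against 4.1, 2.97, 3.34, 2.97 and 3.8 in controls. Control replicate 1 lay among the TETA libraries and the other controls below them. On the log2 scale the difference was 0.37 (SE 0.14, 95% interval 0.09 to 0.66), with an exact permutation p of 0.0476 and an edgeR adjusted p of 0.0944. At E18.5 it was 0.11 (SE 0.086, 95% interval -0.07 to 0.29), from controls of 5.59 through 7.17 to 7.85 CPM and TETA libraries of 6.15 through 7.58 to 8.27.

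Dbh was near the floor in every group. The gene lies on GRCm38 at chr2:27165233-27183200 on the plus strand. At E18.5 the 6 control libraries held 7 counts in all and the 6 TETA libraries 16. At 7 weeks the control libraries held 6, 11, 7, 9 and 10 counts and the TETA libraries 2, 4, 12 and 2. As CPM the adult levels were 0.42 ± 0.0881 (control, n = 5) and 0.241 ± 0.209 (TETA, n = 4), and the exact permutation p was 0.111. Without TETA replicate 3, the library with 12 counts, the TETA level was 0.142 ± 0.0797 (n = 3). Control replicate 3-1 at E18.5 had 0 counts, which allows up to 0.128 CPM.

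Slc6a2, the noradrenaline transporter of noradrenergic neurons, was at 0.0109 CPM in control libraries at E18.5 and 0.0308 CPM at 7 weeks, and Th, which makes the precursor of dopamine, at 1.88 and 2.48 CPM; both were chosen after their values were seen. These neurons have their cell bodies in the brainstem. In the catecholamine and amine list of 12, 7 genes were tested at 7 weeks and 8 at E18.5. At 7 weeks 1 was called: Aldh2, the mitochondrial aldehyde dehydrogenase, fell from 103 to 90.6 CPM (log2 change -0.17, SE 0.043, edgeR adjusted p = 0.0132). None was called at E18.5, where Maoa and Slc18a2 had the smallest p (log2 differences -0.059 and 0.086, edgeR adjusted p = 0.996 for both). Between ages 5 rose and 2 fell, against 44% and 45.3% of all genes. Maob went from 2.53 to 28.8 CPM and Slc18a2, the vesicular monoamine transporter, from 6.5 to 0.11.

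Copper reaches the secretory path by uptake, a chaperone and the pumps of the Golgi. A list of 8 genes for copper supply held genes of these steps and others that do not carry copper themselves. All 8 were tested and 1 was called at 7 weeks. Slc31a2, a copper transporter of internal membranes, rose from 7.35 to 9.12 CPM (log2 change 0.33, SE 0.089, edgeR adjusted p = 0.0233). Atp7a was at 8.02 and 8.93 CPM (log2 difference 0.17, SE 0.094, edgeR adjusted p = 0.278); it was named for its role, after its values were seen. None was called at E18.5, where Atp7a had a difference of 0.092 (SE 0.063, edgeR adjusted p = 0.996). Between ages 2 of the 8 were higher at 7 weeks and 5 lower, against 44% and 45.3% of all genes. Ap1s1, a subunit of a sorting adaptor, rose by 1.03 and Slc33a1, which is no copper transporter, by 0.72. Atp7a fell by 1.45 and Slc31a1, the uptake transporter, by 0.84.

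A list of 8 other copper proteins of the secretory path and the cell exterior gave 3 tested genes at E18.5 and 4 at 7 weeks, with 0 called at either age. Sod3, the extracellular superoxide dismutase, had a difference of 0.48 at E18.5 (SE 0.16, edgeR adjusted p = 0.801) and -0.17 at 7 weeks (SE 0.1, edgeR adjusted p = 0.309). The 2 effects differed by -0.66 (SE 0.19, edgeR adjusted p = 0.0487). Between ages Sod3 rose from 1.28 to 10.4 CPM, and all 4 tested genes of the list were higher at 7 weeks.

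**Figure D5:**
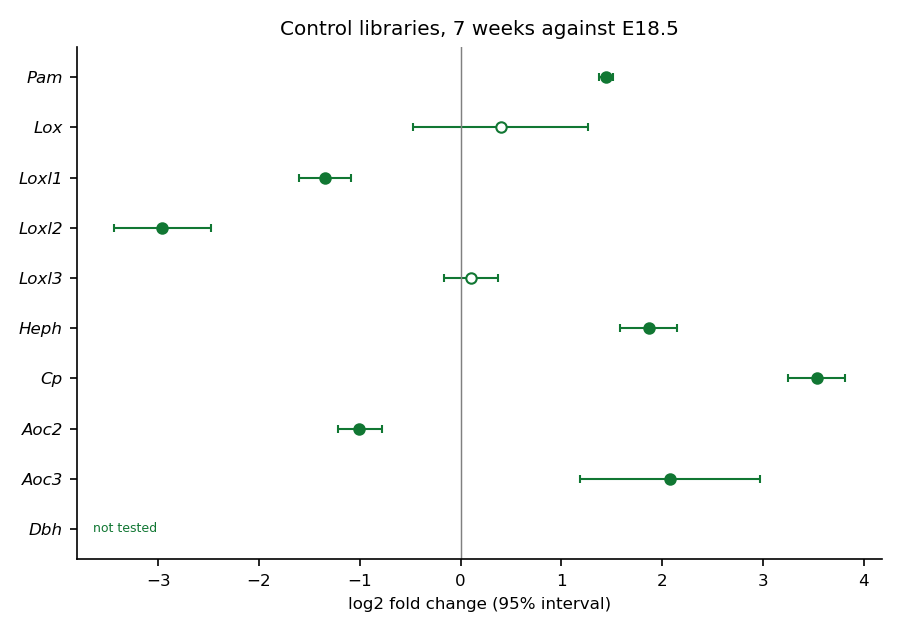
Log2 fold change between control libraries, 7 weeks against E18.5, for each member, with 95% intervals; filled circles passed the adjusted threshold. Cp (3.53) is highest and Loxl2 (-2.96) lowest; Lox and Loxl3 are open.

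Across ages, then, 4 of 9 members were called higher at 7 weeks (Pam, Heph, Cp and, after the division by 11 alone, Aoc3) and 3 lower (Loxl1, Loxl2 and Aoc2), against 44% and 45.3% of all genes. Their median was 0.40, the value of Lox, against -0.02 for all genes. Lox was at 0.612 ± 0.372 and 0.832 ± 0.196 CPM, a difference of 0.40 (SE 0.42, edgeR adjusted p = 0.373), which was 0.77 without control replicate 3-1 of E18.5. The order per length in control libraries at E18.5 was Pam, Aoc2, Loxl1, Loxl3, Loxl2, Heph, Lox, Cp, Aoc3 and Dbh, and the libraries of neighbours overlapped between Aoc2 and Loxl1 and for each neighbour from Heph to Dbh. At 7 weeks it was Pam, Aoc2, Cp, Loxl3, Loxl1, Heph, Lox, Aoc3, Dbh and Loxl2, with overlap between Aoc2 and Cp, among Loxl3, Loxl1 and Heph, and among Lox, Aoc3 and Dbh.

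With TETA at 7 weeks, 5 of 8 members had an unadjusted p under 0.05, against 24% of all genes: 1 was higher (Aoc2; 12.9% of all genes) and 4 lower (Lox, Loxl1, Heph and Aoc3; 11.1%). In none did the groups separate, against 11.2% of all genes at 7 weeks and 0.319% at E18.5. The TETA effect differed between ages for 0 of 9 members at the adjusted threshold, against 3.1% of 14660 genes; DESeq2 called none of the members either, and 2 of 9, Loxl1 and Heph, had an unadjusted p under 0.05, against 15.9% of all genes. Among the 1418 genes called at 7 weeks 57.0% were higher with TETA, and 67.6% without TMM scaling; for the difference between ages these shares were 54% and 72%.

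Between members, after group means were removed, the highest r over 21 libraries was 0.60 for Cp and Lox, followed by 0.53 for Aoc3 and Lox; for Cp and Lox the library TETA replicate 3-2 at E18.5 was highest in both. The genes most like the others were Txlna for Pam (r = 0.79), Meaf6 and Med27 for Loxl1 (r = 0.79 each), Mrpl16 for Loxl3 (r = 0.77), Pygb for Heph (r = 0.80), Slc25a16 for Cp (r = 0.79) and Clip4 for Aoc2 (r = 0.79), among 11522 or 11523 genes compared. None of these partners was a member, but of the members only Pam, Loxl1, Loxl3 and Aoc2 had counts high enough to be among the genes compared.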

How the data were processed

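The authors deposited whole-number counts per gene symbol in 2 tables, 1 for each age, per the file headers. The submitters' processing notes name STAR 2.7.1a, featureCounts 2.0.1 and mm10; the annotation and the strand setting are not given in the sources used here. The libraries were stranded mRNA libraries, per the labels' protocols. In the E18.5 table, the 1940 genes at 0 in control replicate 1-1 had counts that were multiples of 11 in the other libraries, and these were divided by 11.

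Counts were filtered (filterByExpr, minimum count 10) and scaled by TMM, and each age was fitted alone with edgeR 4.0.16 in R 4.3.3 (quasi-likelihood test, Benjamini-Hochberg over all genes tested, threshold 0.05). A fit of all 21 libraries gave the contrast of the control groups and the difference of the TETA effects. SEs were taken from the fold change and its F statistic (absolute log2 value over the root of F). Each member also had an exact permutation test, two-sided, of mean log2(CPM + 0.5) over 924 splits at E18.5 and 126 at 7 weeks, whose smallest p-values are 0.0022 and 0.0079; these 20 tests are not adjusted. The biological coefficient of variation was 5.85% at E18.5 and 4.55% at 7 weeks. Replicate libraries all differed by more than counting noise (lowest chi-square per gene 2.3). RPKM used merged exons of GENCODE vM21 (GRCm38); promoters came from RefSeq, GRCm38.p6. The tests were run on simulated data first. The named genes are the members and, of each list, the called genes with the smallest p, at most 4 each way, or the 2 smallest p-values where none passed, with the exceptions said in the text; the genes most like a member had a mean of at least 50 counts. Members and lists were chosen with earlier results of these data known. Alternatives were DESeq2 1.42.0, other filters, no TMM, the deposited counts, sums over the first replicate number, a replicate block, marker scores as covariates, another pseudocount and leaving out each library.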

Additional observations from a re-analysis of the deposited data

Results flagged for a closer look

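Of 40 groups of member values examined, 2 held a library apart from the others by Dixon's ratio at the 95% level, and chance flags about 1 group in 20. Lox in the TETA group at E18.5 stood at 2.021 CPM in replicate 3-2, whereas the other 5 libraries ran from 0.18 to 0.788; the meningeal marker sum, 31.4 CPM, was also highest in that library. Loxl2 in the same group stood at 1.994 CPM in replicate 2-2, below the other 5 libraries, which ran from 2.649 to 2.955. Without that library the group stood at 2.75 ± 0.124 CPM (n = 5).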

How the results depend on the processing

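Of the values of single members under the alternatives, 731 kept their direction and their side of the threshold, 24 changed sign and 5 passed the threshold. The count at E18.5, 0 by edgeR (660 at an unadjusted p under 0.05), was 10 by DESeq2, 2 with libraries of the same first number summed, and 0 to 7 with each library left out (7 without TETA replicate 1-2). The count at 7 weeks, 1418, was 1 with the striatum score and 402 with the meningeal score (added after seeing the data), and 927 (without TETA replicate 3) to 1392 with each library left out. The count for the difference between ages, 454, was 290 (without TETA replicate 3 of 7 weeks) to 622 (without TETA replicate 1-2 of E18.5). With the replicate block, 0 genes were called with TETA at E18.5 (719 at an unadjusted p under 0.05). At 7 weeks 1063 were called, where control replicate 5 had no partner. After group means were subtracted, same-numbered control and TETA libraries correlated at -0.275 to 0.284 at E18.5 and -0.0692 to -0.0296 at 7 weeks. With no reference value beside them, these correlations do not decide whether the numbers pair libraries.

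Signs changed for Loxl3 between ages without TMM (-0.042), for Aoc3 between ages with the deposited counts (-1.325), for Loxl3 at 7 weeks with the replicate block (-0.044) and for Pam (-0.018) and Loxl3 (-0.524) at 7 weeks with the striatum score. With the meningeal score they changed for Lox (-0.404), Loxl2 (-0.001) and Cp (-0.063) at E18.5 and Aoc3 at 7 weeks (0.199), and with a pseudocount of 0.1 for the Lox difference at E18.5 (-0.047 against 0.007). The cause was not tested. With each library left out, the ranges that crossed 0 were Cp at E18.5 (-0.131 to 0.206), Loxl2 at E18.5 (-0.042 to 0.114), Loxl3 at 7 weeks (-0.115 to 0.147) and between ages (-0.006 to 0.177), and, for the difference of the effects, Cp (-0.15 to 0.187) and Loxl3 (-0.253 to 0.007). Lox was under the filter in 3 of the 12 such fits at E18.5. Depth limits Lox, Loxl2 at 7 weeks, Aoc3 and Dbh.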
